A study of Rattus norvegicus with 60 samples.

Results

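The miR-99/100 and miR-125 families were followed in the rat retina after a period of ischemia. Members were the rat miRs on the array whose name was miR-99a, miR-99b, miR-100, miR-125a or miR-125b, with or without a 5p or 3p strand suffix, and the rule used no measured value. It found 7 of 350 miRs: rno-miR-99a, rno-miR-99b, rno-miR-100, rno-miR-125a-5p, rno-miR-125a-3p, rno-miR-125b-5p and rno-miR-125b-3p. Total RNA of whole retinas from male Long Evans hooded rats of 250 to 300 g was labelled with Cy3 (100 ng) and hybridised to Agilent 1-colour rat miRNA arrays. In the ischemia-reperfusion (IR) groups the anterior chamber of an eye was cannulated and the intraocular pressure held at 110 mmHg for 60 min, after which the retina was reperfused before collection at 0 h, at 2 h, at 24 h, at 48 h or at 7d. The sham control groups went through the same anesthesia, eye drops and cannulation without the raised pressure, so all 10 groups share the needle injury, and each group held 6 arrays. Ages were not given. The families are known from Müller glia, but the labels name whole retina and no cell type, and in whole retina fewer cells of a type and less of a miR per cell cannot be told apart.

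MicroRNAs are short RNAs that guide Argonaute proteins to messenger RNAs, mainly through the seed at bases 2 to 8, and lower the output of those messages. Each is cut from a hairpin precursor whose 5p and 3p arms give separate mature strands with separate seeds, of which usually one is kept. The miR-99/100 family is known to target the kinase mTOR, and the miR-125 family, related to lin-4 of the worm, is known from neural development and is held to be enriched in Müller glia, the main supporting cells of the retina.

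The mature sequences show which members could be expected to share targets, and they are given 5′ to 3′ from RefSeq (GRCr8) with the seed in capitals. A mature entry was matched for 6 of the 7 members among 693 mature rat miRs.
rno-miR-99b: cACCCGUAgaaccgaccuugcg
rno-miR-100: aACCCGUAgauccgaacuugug
rno-miR-125a-5p: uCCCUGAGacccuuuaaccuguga
rno-miR-125b-5p: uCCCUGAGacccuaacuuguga
rno-miR-125a-3p: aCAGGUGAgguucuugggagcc
rno-miR-125b-3p (the 3p strand of Mir125b1): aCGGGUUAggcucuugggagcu

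The seed ACCCGUA was held by 2 mature rat miRs of the table, miR-99b and miR-100. The seed CCCUGAG was held by 3, miR-125a-5p, miR-125b-5p and miR-351-5p, and the seed CAGGUGA of miR-125a-3p by no other. rno-miR-99a is named only, without a mature entry, and its 81-base hairpin is shown because it holds the family seed in its 5p arm, in capitals here.
Mir99a hairpin: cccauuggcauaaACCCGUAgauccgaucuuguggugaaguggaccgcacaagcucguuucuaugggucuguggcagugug

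Counted from 1 at the 5′ end of miR-100, the 22 bases of this hairpin that align to miR-100 differed by A16U alone, while miR-99b differed from miR-100 by A1C, U11A, A16C and U21C. The 5p strands miR-125a-5p and miR-125b-5p had the same base at 15 of their first 22 positions, all bases of the seed among them. Between the 3p strands of miR-125a and miR-125b the differences A3G and G7U fell inside the seed.

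In GRCr8 the members lie in 3 clusters, each with a miR-99/100 gene, a let-7 gene and a miR-125 gene. Mir99b (chr1:67350064-67350133), Mirlet7e and Mir125a (chr1:67350675-67350759) lie inside the protein-coding gene Spaca6, with 541 bases between the outer hairpins. Mir100 (chr8:50798295-50798374), Mirlet7a-2 and Mir125b1 (chr8:50850036-50850122) lie inside the long non-coding RNA gene Lnc215, with 51661 bases between the outer hairpins. Mir99a (chr11:29687392-29687472), Mirlet7c1 and Mir125b2 (chr11:29732572-29732659) lie inside the long non-coding RNA gene LOC103693508, with 45099 bases between them. The annotation spans were checked for the whole gene, and whether a hairpin is in an exon or intron was not examined. In rn4, the build of the array files, the probes of miR-99a are at chr11:16397558-16397577, of miR-99b at chr1:56486981-56486996 and of miR-100 at chr8:44518685-44518703. Those of miR-125a-5p are at chr1:56487599-56487617, of miR-125a-3p at chr1:56487637-56487653 and of miR-125b-5p at chr11:16443687-16443703.

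IR arrays were dimmer than sham control arrays at each time but 2 h, which touches each result that follows. The log2 of the factor each array was scaled by (the 75th percentile of the array's signals, taken over 57 miRs that every array detected) differed between IR and sham control by -1.06, 0.04, -2.15, -1.19 and -2.58 in order of time, from 0 h to 7d. By the exact two-sided permutation test, adjusted over the 5 times, p was 0.0379, 0.894, 0.0054, 0.0108 and 0.0054. The median number of miRs detected on an IR array fell short of that on a sham control array at 24 h (106 against 148), 48 h (118 against 158) and 7d (97.5 against 164), and the range over all arrays was 59 to 232. Arrays lay on 9 slides scanned on 3 days, each day held all 10 groups, and no slide held both treatments of 1 time. Slide and treatment can therefore barely be told apart, and the labels do not say whether the retinas were processed separately, so the p-values measure the spread between these arrays. Among the markers of other cells, the muscle miR rno-miR-206 differed by 2.04, 2.33, 1.91, 1.96 and 1.34 at the 5 times, higher in IR at each with a limma adjusted p of 0.00577 or less. The summed signal of the 4 striated muscle miRs was 6.93 to 8.59 (log2) on IR and 2.69 to 7.31 on sham control arrays at 0 h, overlapped at 48 h too, and was higher on all IR arrays at 2 h (6.23 to 9.09 against 4.74 to 6.22), 24 h (7.08 to 8.13 against 5.47 to 6.20) and 7d (6.67 to 7.32 against 5.32 to 6.26). Of the 6 blood and leukocyte miRs, none was detected on all 60 arrays and 3 on no array. Their summed signal was 5.23 to 6.85 (log2) on IR and 3.49 to 5.02 on sham control arrays at 24 h, the sole time without overlap. At 24 h the lowest detected signal after scaling had a median of 28.1 units on IR and 5.22 on sham control arrays. The one blood miR tested, rno-miR-150, differed by -0.37 at 24 h (limma adjusted p 0.0853), detected on 0 IR and 2 sham control arrays. Its scaled signal was lower in IR at 48 h (-0.73, limma adjusted p 0.0013), detected on 1 IR and 4 sham control arrays. At 7d it was lower too (-0.96, limma adjusted p 3.5e-05), detected on 0 IR and 6 sham control arrays. It entered the test through the sham control group at 7d alone, its highest group, so the filter favoured a difference there. The lowest detected scaled signal at 7d had a median of 35.6 units on IR and 3.53 on sham control arrays. The 3 photoreceptor miRs and 3 of the 4 neuronal miRs were detected on all 60 arrays and none was called at any time, nor was any of the vessel miRs, 2 of 3 of which were tested. By the limma adjusted p alone, 60.4%, 54.7% and 59.7% of the 159 miRs tested passed at 24 h, 48 h and 7d, in either direction. Of the 4 neuronal miRs, 3 were lower in IR at 24 h, 2 at 48 h and 2 at 7d, as were members described here. Of these, rno-miR-181a differed by -0.30, -0.66 and -0.46 (limma adjusted p 0.0272, 9.56e-06 and 0.000908) and rno-miR-128 by -0.44, -0.33 and -0.78 (limma adjusted p 0.00924, 0.0491 and 1.17e-05). rno-miR-9 passed at 24 h alone (-0.37, limma adjusted p 0.0376) and rno-miR-124 at no time. Of the photoreceptor miRs, rno-miR-183 was higher at 24 h, 48 h and 7d (0.40, 0.25 and 0.31, limma adjusted p 0.000245, 0.0203 and 0.00251). rno-miR-182 was lower at 48 h (-0.38, limma adjusted p 0.00132) and rno-miR-96 passed at no time. The vessel miR rno-miR-126 had a lower scaled signal at 24 h alone (-0.52, limma adjusted p 0.00496), where 1 IR and 6 sham control arrays detected it. rno-miR-143 passed at no time. Of the 3 epithelial miRs, rno-miR-184 differed by 0.96, 1.85, -1.71 and -0.12 from 0 h to 48 h (SE 1.08 each), and none passed. At 7d its fitted difference was -3.34 (SE 1.08, limma adjusted p 0.00713). With each IR array raised to at least its lowest detected scaled signal, it was still 2.17-fold lower in IR at 7d. No IR array and all 6 sham control arrays detected it there, the one group through which it entered the test. The part of brightness, slide and other cells' RNA in the results was not tested beyond the settings named.

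Detection divided the members. rno-miR-99a, rno-miR-125a-5p and rno-miR-125b-5p were detected on 60 of 60 arrays, rno-miR-100 on 59, rno-miR-99b on 44 and rno-miR-125a-3p on 37. rno-miR-125b-3p was detected on none, its unscaled signal never exceeded -1.32 units, and it was not tested. The other 6 members were among the 159 miRs tested, which needed detection by the 6 arrays of some group without exception. A miR was called at a difference of at least 2-fold with a limma adjusted p of at most 0.05. At 0 h, 1 of the 6 members was called against 6.92% of all 159 miRs, and at 2 h 0 of 6 against 5.03%, with 0 members at an unadjusted p under 0.05 and 0 called with the exact permutation test. At 24 h and at 48 h, 1 of 6 was called in each comparison, against 18.2% and 13.8% of all miRs. At 7d, 0 of 6 were called by limma against 18.2%, with 3 members at an unadjusted p under 0.05 and 0 called with the exact permutation test. The median difference over the 6 members was -0.03, -0.04, 0.08, 0.01 and 0.12 (log2) at the 5 times, and over all 159 miRs 0.02, -0.01, -0.13, -0.15 and -0.15. Without the 2-fold threshold, 1, 0, 3, 4 and 3 of the 6 members passed the adjusted p, against 12.6%, 7.55%, 60.4%, 54.7% and 59.7% of all miRs.

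**Figure D1:**
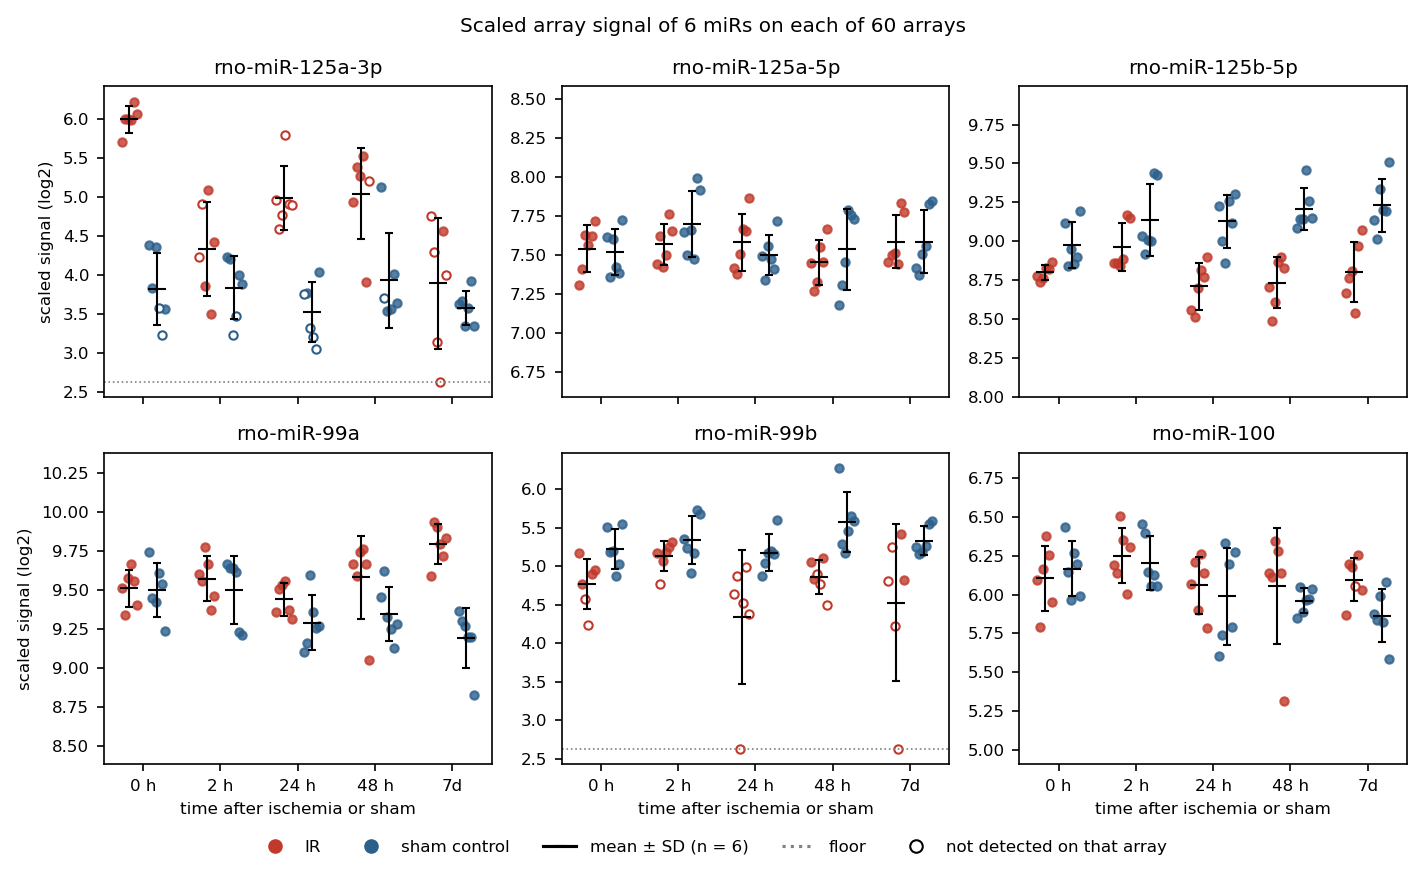
Scaled signal (log2) of 6 members on each of the 60 arrays, by time, with IR in red and sham control in blue; filled circles are arrays that detected the miR, open circles arrays that did not, bars give the mean ± SD of 6 arrays and the dotted line the floor at 2.63. The axes of the panels differ. rno-miR-125a-3p stood between 5.70 and 6.22 on the IR arrays at 0 h, above the sham control range of 3.23 to 4.38, while rno-miR-125a-5p kept group means of 7.45 to 7.70.

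The largest difference among the members was in the 3p strand of miR-125a at the end of ischemia. At 0 h, rno-miR-125a-3p had a lowest, median and highest log2 scaled signal of 5.70, 6.00 and 6.22 on IR arrays and of 3.23, 3.70 and 4.38 on sham control arrays. All IR arrays were above all sham control arrays, as for 4.4% of the 159 miRs in either direction. The difference was 2.17 (SE 0.29, n = 6 against 6, limma adjusted p 9.43e-08), or 4.5-fold. It was there before scaling too, with 58.2 ± 35.1 units on IR arrays and 25.8 ± 11.3 on sham control arrays (SD, n = 6), although the IR arrays were the dimmer ones. All 6 IR arrays and 4 of the sham control arrays detected it. All 4 of its probes, which pair with 14 to 17 bases, were higher in IR, by 1.66 to 2.71 (log2), and within the 3 scan days the difference was 1.71, 2.70 and 2.49. After normexp it was 1.31, 1.29, 1.31 and 1.70 (0 h, 24 h, 48 h, 7d), and 0 h was then not the largest.

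At 2 h the difference was smaller. The IR arrays ran from 3.50 over a median of 4.32 to 5.09 and the sham control arrays from 3.23 over 3.94 to 4.23. The ranges overlapped, no member was without overlap at this time (3.14% of all miRs), and the difference of 0.50 (SE 0.29) did not pass (limma adjusted p 0.488). The IR effect itself was lower at 2 h than at 0 h by limma (difference -1.68, SE 0.41, adjusted p 0.0208), the single such miR among the 159 (0.629%).

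At 24 h and 48 h the scaled signal of rno-miR-125a-3p was again higher in IR, but detection was poor. At 24 h, IR arrays held 4.59, 4.90 and 5.79 (lowest, median, highest) and sham control arrays 3.05, 3.54 and 4.03, without overlap, as for 34% of all miRs. None of the 6 IR and 2 of the 6 sham control arrays detected it, so no fold is given beside the group means of 4.98 and 3.52 (log2 difference of the fit 1.46, SE 0.29, limma adjusted p 3.48e-05). The unscaled means were 12.9 units in IR and 20.5 in sham control, and without scaling the difference turned to -0.62. With quantile normalization it was 0.60 with a limma adjusted p of 0.08. At 48 h, IR arrays held 3.91, 5.24 and 5.53 and sham control arrays 3.54, 3.67 and 5.12, with overlap, and 5 of 6 arrays detected it in each group. The difference was 1.11 (SE 0.29, limma adjusted p 0.00108), or 2.16-fold, and the unscaled means were 27.3 and 26.8 units. It was below 2-fold with quantile normalization (0.76, limma adjusted p 0.0312) and lost the adjusted p with slide as a fixed block (0.95, limma adjusted p 0.0671). At 7d, the difference was 0.32 (SE 0.29, limma adjusted p 0.347), and it was seen by 1 IR array and 6 sham control arrays. The IR effect at 7d was lower than at 0 h (-1.85, SE 0.41, limma adjusted p 0.00158), and 2 members and 25.8% of all miRs passed this comparison, whose sign the normexp values given above turn. At 24 h and 48 h no member passed against 0 h (6.29% and 12.6% of all miRs). The comparisons with 0 h share the 0 h arrays.

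The 5p strand, cut from the other arm of the same hairpin, showed no such change. rno-miR-125a-5p had a lowest, median and highest log2 signal of 7.31, 7.59 and 7.72 on IR arrays at 0 h and of 7.36, 7.51 and 7.73 on sham control arrays, which overlapped. Its differences over the 5 times were 0.02, -0.13, 0.08, -0.08 and -0.00 (SE 0.10 each), none passed the limma adjusted p, and at 7d the 95% interval was -0.21 to 0.21. In the order of its 10 group means, from 7.70 in sham control at 2 h to 7.45 in IR at 48 h, no neighbours differed by more than their SD.

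**Figure D2:**
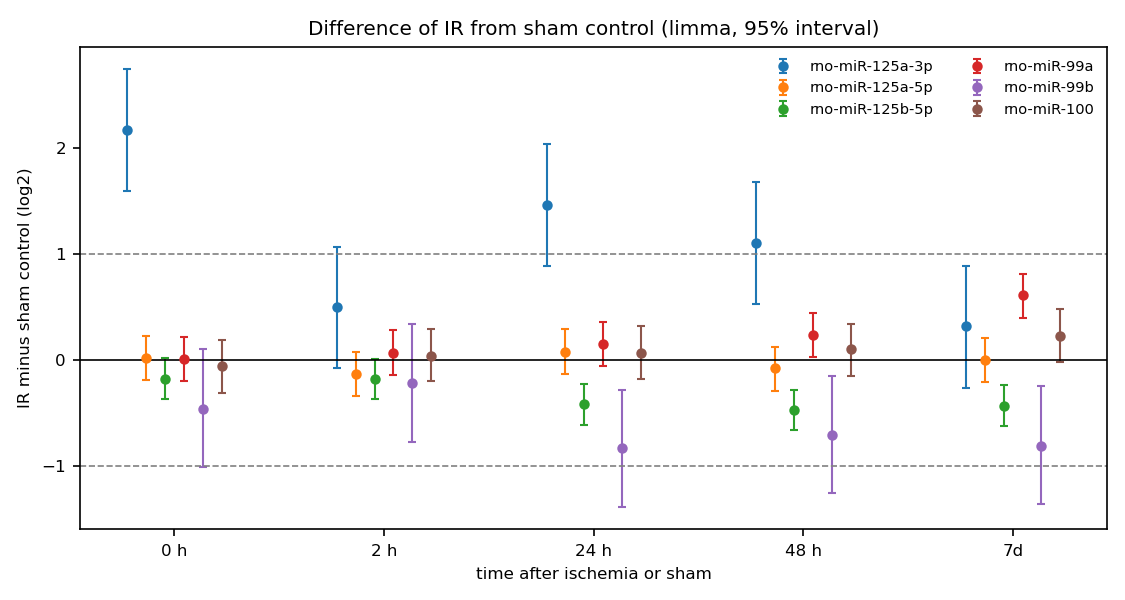
Difference of IR from sham control (log2, y axis) for 6 members at 5 times (x axis); points are limma estimates over 6 arrays against 6, bars their 95% intervals, and dashed lines mark 2-fold. rno-miR-125a-3p was highest at 0 h (2.17), rno-miR-99a moved up to 0.61 at 7d, and rno-miR-99b and rno-miR-125b-5p lay below 0 at each time.

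The ratio of the 3p to the 5p strand within an array does not depend on how arrays are scaled where both strands are above the floor. At 7d the 3p strand was at the floor on 1 IR array. The level of the ratio itself carries no meaning because the probes differ. At 0 h the log2 ratio was -1.66, -1.59 and -1.40 (lowest, median, highest) on IR arrays and -4.16, -3.69 and -3.23 on sham control arrays, without overlap. The ratio was higher in IR by 2.15 (IR -1.55 ± 0.11, sham control -3.70 ± 0.42, SD, n = 6). The exact two-sided permutation p was 0.00216, the smallest this design allows, and 0.00787 after adjustment over the 40 ratio comparisons made for 8 pairs, of which 23 passed. The ratio was also higher at 24 h by 1.38 (exact permutation test, adjusted p 0.00787) and at 48 h by 1.19 (adjusted p 0.0414, exact), but not at 2 h (0.63, adjusted p 0.137, exact) or 7d (0.32, adjusted p 0.41, exact). At 24 h the ratio rests on an undetected 3p strand in all 6 IR arrays. After normexp the ratio differences were 0.95, 0.78, 0.93 and 1.06 at 0 h, 24 h, 48 h and 7d (exact, adjusted p 0.00722, 0.00722, 0.0102 and 0.00722), so the 0 h difference was less than with the processing used here and the 7d one passed.

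**Figure D3:**
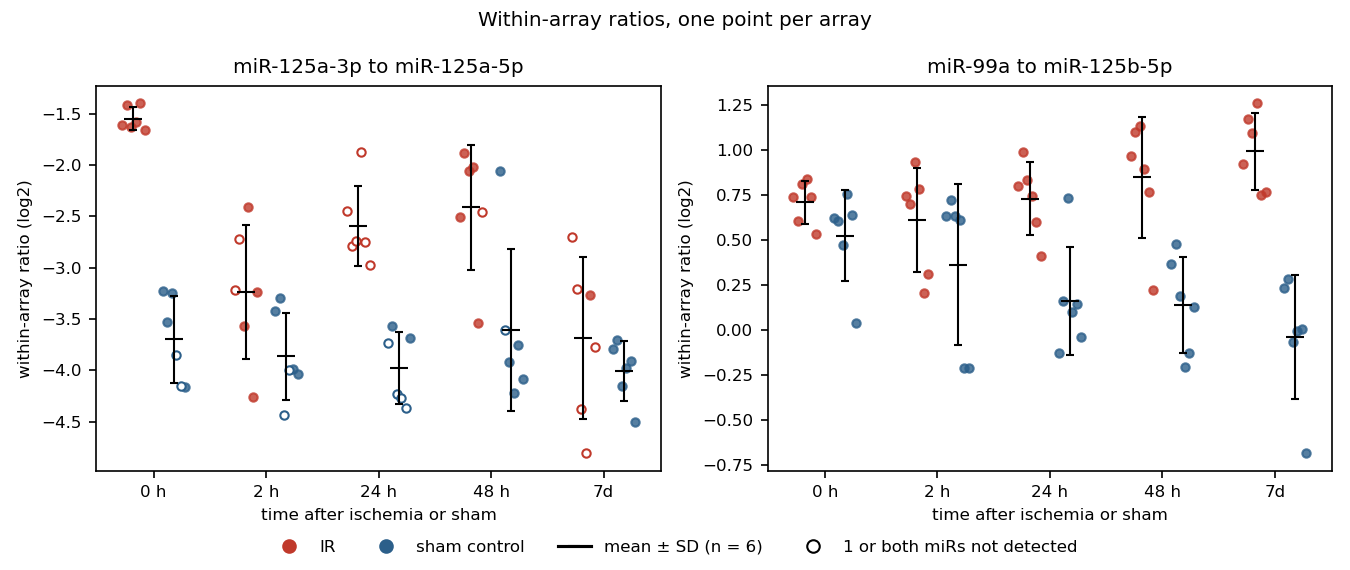
Within-array log2 ratio of miR-125a-3p to miR-125a-5p (left) and of miR-99a to miR-125b-5p (right) on each array, by time, with IR in red, sham control in blue and the mean ± SD of 6 arrays; open circles mark arrays that did not detect 1 or both miRs. The strand ratio was apart at 0 h and 24 h, where the IR points at 24 h are open, and the miR-99a ratio was apart at 7d with all points filled.

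rno-miR-99a, of the mTOR-targeting family, was higher in IR late. At 7d its log2 signal was 9.59, 9.82 and 9.94 (lowest, median, highest) on IR arrays and 8.82, 9.23 and 9.37 on sham control arrays. The groups did not overlap, as for 41.5% of the miRs. The difference was 0.61 (SE 0.10, 95% interval 0.40 to 0.81, limma adjusted p 2.19e-06), or 1.52-fold, with 0.60 and 0.61 on its 2 probes and 0.43, 0.62 and 0.77 within the 3 scan days. At 48 h the difference was 0.24 (SE 0.10, limma adjusted p 0.0475), and it passed in 3 of the 12 fits that each left out 1 array. At 0 h, 2 h and 24 h it was 0.01, 0.07 and 0.15, and none passed. The IR effect at 7d exceeded that at 0 h by 0.59 (SE 0.15, limma adjusted p 0.00405). Sham control arrays themselves were lower at 7d than at 0 h by limma (-0.31, SE 0.10, adjusted p 0.0472), as 1 of the 6 members and 10.1% of all miRs passed there. With slide as a fixed block the 7d difference was 0.26 (limma adjusted p 0.0766), with slide as a random block 0.55 (limma adjusted p 1.21e-05).

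rno-miR-125b-5p, whose seed equals that of miR-125a-5p, was lower in IR by the limma adjusted p at 24 h, 48 h and 7d. At 48 h its log2 signal was 8.49, 8.77 and 8.90 (lowest, median, highest) on IR arrays and 9.09, 9.15 and 9.45 on sham control arrays. No arrays overlapped, as for 15.1% of the miRs. The differences were -0.42 at 24 h, -0.47 at 48 h and -0.43 at 7d (SE 0.10 each, limma adjusted p 0.000249, 4.82e-05 and 0.000168), against -0.18 at 0 h and -0.18 at 2 h (limma adjusted p 0.248 and 0.415). A later onset was not shown. The IR effect minus that at 0 h was -0.24, -0.30 and -0.25 at 24 h, 48 h and 7d (SE 0.13 each, limma adjusted p 0.237, 0.133 and 0.161). The IR mean was 8.80 at 0 h and at 7d, and the sham control mean 8.97 and 9.23 (difference 0.26, SE 0.10, limma adjusted p 0.0787). At 24 h the arrays ran from 8.51 over 8.74 to 8.90 in IR and from 8.86 over 9.17 to 9.30 in sham control, and at 7d from 8.54 over 8.79 to 9.07 and from 9.02 over 9.20 to 9.51, each with a small overlap. With slide as a fixed block the differences from 24 h on were -0.22, -0.23 and -0.13 (limma adjusted p 0.128, 0.0671 and 0.302), and after normexp background correction -0.13, -0.25 and -0.04 (limma adjusted p 0.276, 0.0315 and 0.689). With array brightness as a covariate they were -0.37, -0.44 and -0.37 (limma adjusted p 0.045, 0.000941 and 0.0634).

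The ratio of miR-99a to miR-125b-5p, whose genes Mir99a and Mir125b2 share a cluster, was higher in IR at 24 h, 48 h and 7d. Mir125b1 on another chromosome gives the same 5p strand, so the signal of miR-125b-5p comes from either gene. At 7d the log2 ratio was 0.75, 1.01 and 1.26 (lowest, median, highest) on IR arrays and -0.69, -0.00 and 0.28 on sham control arrays, without overlap and with both miRs detected on all 12. Its differences were 0.57 at 24 h, 0.71 at 48 h and 1.03 at 7d (exact two-sided permutation test, adjusted p 0.0144, 0.0144 and 0.00787), against 0.19 and 0.25 at 0 h and 2 h (exact, adjusted p 0.157 and 0.323). Within the 3 scan days the 7d difference was 0.79, 1.21 and 1.10, and leaving out any 1 array gave 0.90 to 1.10. With slide as a fixed block the differences at 24 h, 48 h and 7d were 0.07, 0.17 and 0.39. After normexp they were 0.13, 0.19 and 0.51 (exact, adjusted p 0.359, 0.445 and 0.0102).

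The ratio of miR-125a-5p to miR-125b-5p, the strands of equal seed, was higher in IR by 0.20 at 0 h, 0.50 at 24 h, 0.39 at 48 h and 0.43 at 7d (exact permutation test, adjusted p 0.0216 or less for each), with 0.05 at 2 h (exact, adjusted p 0.371). Both were detected on all 60 arrays. With slide as a fixed block the differences at 24 h, 48 h and 7d were 0.26, 0.13 and 0.12.

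rno-miR-99b, from the cluster that also holds miR-125a, had lower scaled signals in IR by the limma adjusted p at 24 h, 48 h and 7d, close to the detection limit. At 48 h its log2 signal was 4.49, 4.87 and 5.11 (lowest, median, highest) on IR arrays and 5.16, 5.51 and 6.27 on sham control arrays, without overlap, and the difference was -0.71 (SE 0.28, limma adjusted p 0.0302). At 24 h, IR arrays held 2.63, 4.58 and 4.99 and sham control arrays 4.87, 5.16 and 5.59. None of the 6 IR and all 6 sham control arrays detected it (fitted difference -0.83, limma adjusted p 0.00962). With each IR array raised to at least its lowest detected scaled signal, it was still 1.15-fold lower in IR. That bound holds for this scaling alone. At 7d the arrays held 2.63, 4.82 and 5.41 in IR and 5.16, 5.26 and 5.58 in sham control, with 2 and 6 detections and a difference of -0.81 (SE 0.28, limma adjusted p 0.0108).

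These differences of rno-miR-99b stayed under 2-fold and so were not called, and their adjusted p and direction depended on single arrays and on the processing. It had entered the test through sham control groups alone, where it was higher and all 6 arrays detected it. Without IR replicate 3 the 24 h difference was -0.49 (limma adjusted p 0.0865), and without IR replicate 4 the 7d difference was -0.43 (limma adjusted p 0.108). At 48 h it was -0.64 (limma adjusted p 0.0711) without IR replicate 6 and -0.57 (limma adjusted p 0.0842) without sham control replicate 1. With array brightness as a covariate the differences at 24 h, 48 h and 7d were 0.16, -0.16 and 0.38, and after normexp they turned to 0.90, 0.77 and 1.21. Its ratio to miR-125a-5p of the same cluster was lower in IR at 0 h (-0.48), 24 h (-0.91), 48 h (-0.62) and 7d (-0.80) by the exact permutation test (adjusted p 0.0414, 0.0108, 0.00787 and 0.0216), and after normexp it was higher, by 0.32, 0.40, 0.39 and 0.57.

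rno-miR-100, a base apart from the miR-99a hairpin over its length, had group means of 5.86 to 6.25 (log2), and no neighbours in that order differed by more than their SD. At 7d the arrays held 5.87, 6.12 and 6.25 (lowest, median, highest) in IR and 5.58, 5.86 and 6.08 in sham control, which overlapped. Its differences were -0.06, 0.04, 0.07, 0.10 and 0.23, and none passed (at 7d limma adjusted p 0.101). Its 2 probes disagreed. The 18-base probe, with 11.3% of the signal, gave -1.86, -0.90 and -1.67 at 24 h, 48 h and 7d, and the 19-base probe, with 88.7%, gave 0.26, 0.23 and 0.41. The ratio of miR-99a to miR-100 was higher in IR at 7d by 0.37 (exact permutation test, adjusted p 0.0108), but after normexp the difference turned to -0.73.

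**Figure D4:**
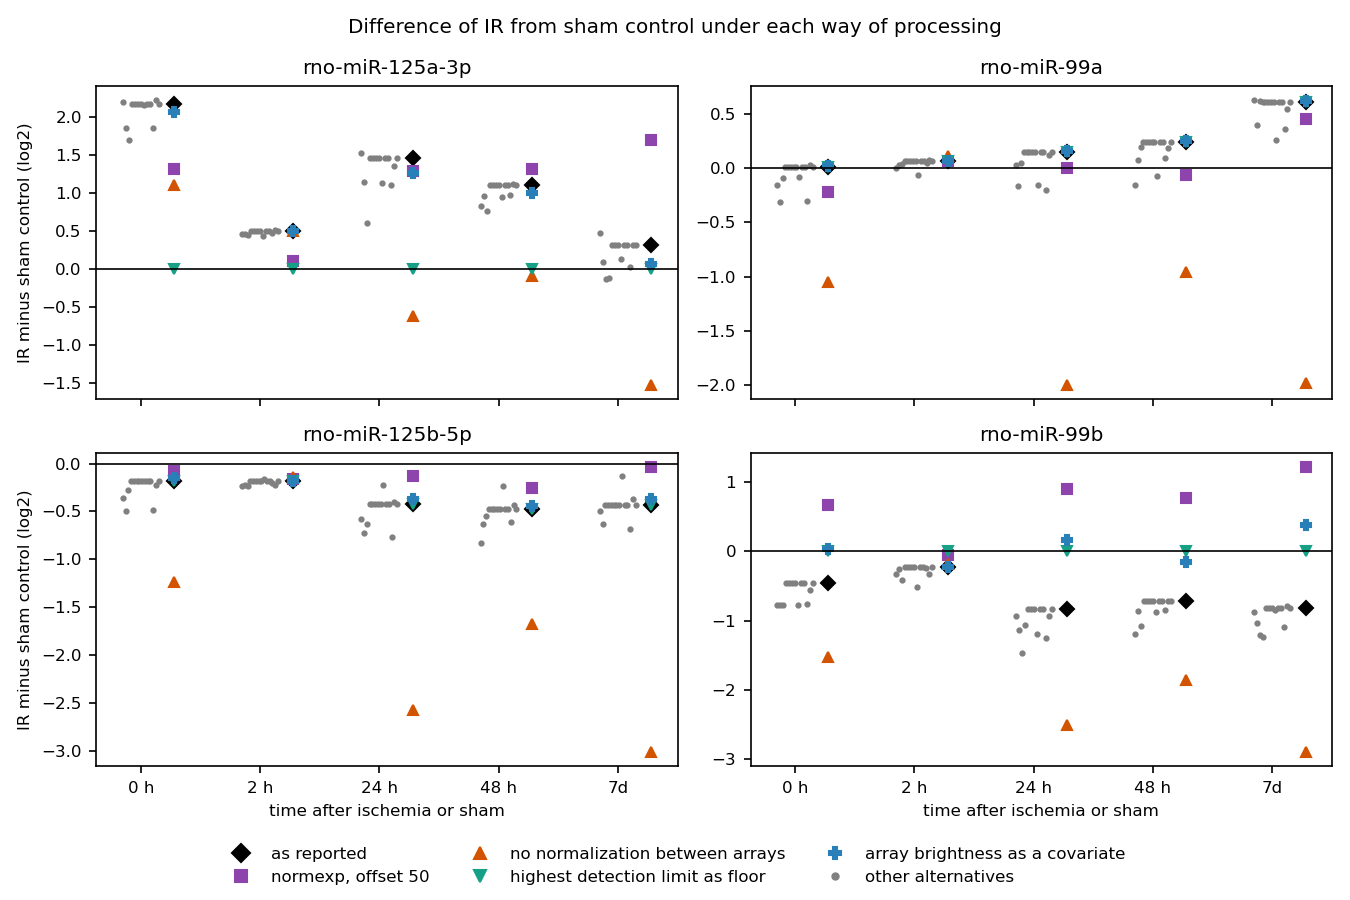
Difference of IR from sham control (log2, y axis) of rno-miR-125a-3p, rno-miR-99a, rno-miR-125b-5p and rno-miR-99b at 5 times (x axis) under each way of processing the arrays; black diamonds are the values reported, coloured symbols the 4 named alternatives and grey dots the others. rno-miR-125a-3p at 0 h ranged from 1.11 without scaling to 2.22, apart from 0.00 with the highest floor, and rno-miR-99b changed sign with normexp at 24 h, 48 h and 7d.

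Among the cluster partners of the members, minor strands were called and let-7 guides were not. Of 12 partners and other strands listed, 8 were on the array and 5 were tested. The let-7 guides rno-let-7a, rno-let-7c and rno-let-7e, which oppose proliferation in many tissues, were detected on all 60 arrays and not called at any time. rno-let-7c, between Mir99a and Mir125b2, differed by 0.13 at 7d (SE 0.06, limma adjusted p 0.0606), where rno-miR-99a differed by 0.61, and rno-let-7e, between Mir99b and Mir125a, by 0.11 at 0 h (SE 0.07, limma adjusted p 0.326), where rno-miR-125a-3p differed by 2.17. These let-7 differences were not tested against those of the members, and whether each let-7 signal came from that locus alone was not examined. The strand rno-miR-125b* was called higher at 0 h by limma (1.34, SE 0.34, adjusted p 0.00325, detected on 5 IR and 4 sham control arrays), and rno-miR-99b* at 2 h, 24 h and 48 h (1.11, 1.20 and 1.71, SE 0.30 each, adjusted p 0.00831, 0.000847 and 7.61e-06). The IR means of rno-miR-99b* were 3.81, 3.91 and 4.64 (log2) at these times. Its sham control means of 2.70, 2.72 and 2.94 lay near the floor at 2.63, so the size of its differences depends on that floor. rno-miR-99b* was detected on 5, 3 and 6 IR and on 2, 2 and 4 sham control arrays at these times. It entered the test through the IR group at 48 h alone, its highest group, so it had to stand apart there.

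Of 6 other miRs held to be enriched in Müller glia and of 8 let-7 guide strands, all tested, none was called at any time by limma. By the adjusted p alone, 1 of the glial 6 was higher and 3 lower at 24 h, 1 was higher at 48 h, and none passed at 0 h, 2 h or 7d. The 3 lower at 24 h were rno-miR-9, rno-miR-204 and rno-miR-9* (-0.37, -0.27 and -0.26, limma adjusted p 0.0376, 0.0264 and 0.0432). The glial list shares rno-miR-9 with the neuronal, rno-miR-204 with the epithelial and rno-miR-143 with the vessel list, so these miRs mark no single cell type here. Of the let-7 guides, 1 was higher at 0 h and 1 at 24 h, none passed at 2 h or 48 h, and 2 were higher and 2 lower at 7d (rno-let-7b by 0.36 and rno-let-7i by 0.17, rno-let-7a by -0.27 and rno-let-7f by -0.38). Of all 159 miRs, 60.4%, 54.7% and 59.7% passed the adjusted p at 24 h, 48 h and 7d, in either direction. At 0 h and 2 h, 12.6% and 7.55% did. Neither list was tested against these shares. The medians of the glial list were 0.07, -0.00, -0.17, -0.10 and -0.01. Those of the let-7 guides were 0.12, 0.05, -0.01, -0.10 and 0.03, beside the medians over all miRs given above.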

How the data were processed

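The arrays (Agilent 1-colour rat miRNA, scanned by the authors with Feature Extraction 9.5.3.1) were deposited as scanner files with a background-subtracted intensity per probe and the total gene signal per miR, which sums its probes. A matrix of 219 features (211 rat miRs) in log2, deposited by the authors too, came from GeneSpring, which shifted every array to its own 75th percentile; its 60 columns have medians of -0.856 to -0.409 and it served as an alternative.

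Total signals were divided by the array's 75th percentile among 57 miRs that every array detected, floored at 6.20 signal units (log2 2.63) and log2-transformed. limma 3.58.1 (R 4.3.3) fitted 10 groups of 6 arrays to the 159 miRs that some group's 6 arrays all detected, with Benjamini-Hochberg adjustment over all of them. Standard errors and intervals (95%) are the fit's. Within-array ratios were compared with exact two-sided permutation tests that went through every split of the 12 arrays, computed with NumPy 2.4.6. The fit was tested on simulated data. A miR undetected on every array of a group was given a bound from the lowest detected scaled signal of each array, which holds for this scaling alone. The number of arrays limits the precision.

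In all, 18 alternatives were tried besides leaving out each array: other normalizations, floors, filters, backgrounds, tests, blocks for slide, scan day and replicate number, and array brightness as a covariate. Slide as a random block was added after seeing the data. Replicate numbers did not pair the arrays: same-numbered IR and sham control deviations had r of -0.45 to 0.60, median 0.11, above 0.1 in 15 of 30 pairs. The members, marker lists, partner lists and ratio pairs were chosen with earlier results of these data known. All members were named; further miRs were named where called among the listed miRs, or as the pair whose 10 group means correlated best with a member. Other listed miRs that were not called were named after their values were seen. They were let-7 guides past the adjusted p at 7d, let-7 partners, and markers of glia and other cells. Sequences and loci came from RefSeq (GRCr8), probe positions from the array files (rn4).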

Additional observations from a re-analysis of the deposited data

Results flagged for a closer look

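In 7 of the 60 sets of 6 arrays checked, an end array stood apart from the rest by more than Dixon's 95% critical value; chance gives about 1 in 20 sets. At 48 h, IR replicate 6 was low for rno-miR-100 (5.31 log2, nearest 6.11) and for rno-miR-99a (9.05, nearest 9.59). For rno-miR-125a-3p the arrays apart were IR 24 h replicate 4 (5.79, nearest 4.97), IR 48 h replicate 5 (3.91, nearest 4.94) and sham control 48 h replicate 1 (5.12, nearest 4.01). For rno-miR-99a it was also sham control 7d replicate 6 (8.82, nearest 9.20), and for rno-miR-99b IR 24 h replicate 3, at the floor (2.63, nearest 4.38).

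The effect of IR differed between times by limma for 2 members. For rno-miR-125a-3p it was lower than at 0 h by a difference of -1.68 at 2 h and -1.85 at 7d (adjusted p 0.0208 and 0.00158). For rno-miR-99a it was higher at 7d than at 0 h by 0.59 (adjusted p 0.00405).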

How the results depend on the processing

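Members called were 1, 0, 1, 1 and 0 of 6 at the 5 times, and leaving out any 1 array left these counts in place. Without scaling between arrays, 6 were called at 0 h, 5 at 24 h, 4 at 48 h and 6 at 7d. With the highest detection limit (90.6 units) as floor, and with the fit limited to the 57 miRs that every array detected, 0 were called at 0 h, 24 h and 48 h, which the settings fix: miR-125a-3p lies under that floor on every array and is not among the 57, which hold 3 members. At 24 h, 2 were called with the 75th percentile over all miRs, a floor of 1 unit, slide as a fixed block or the authors' table. At 48 h, 0 were called with the 75th percentile over all miRs, slide as a fixed block, brightness as a covariate or the authors' table. With quantile normalization at 24 h and 48 h, and with mean log2 probe signals at 48 h, the 1 member called was miR-99b (-1.47, -1.07 and -1.19) in place of miR-125a-3p (0.60, 0.76 and 0.83). At 7d, 3 were called with normexp and 1 with quantile normalization, the 75th percentile over all miRs, a floor of 1 unit or the authors' table.

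For the strand ratio of miR-125a, the highest floor gave -0.02 at 0 h, -0.08 at 24 h and 0.08 at 48 h, which is the change of the 5p strand with its sign turned and says nothing about the 3p strand. Pairing by replicate block kept 2.15, 1.38 and 1.19 with exact adjusted p of 0.0568, 0.0568 and 0.125 (smallest paired p possible 0.0312); in limma the replicate block changed no member's call. At 7d, normexp gave 1.06 (exact adjusted p 0.00722) and a floor of 1 unit -0.12. Leaving out 1 array gave 0.46 to 0.83 at 2 h and 1.07 to 1.50 at 48 h, where 8 of 12 fits missed the threshold.

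Directions reversed mostly where the difference was near 0. The 75th percentile over all miRs gave -0.24 and -0.06 for miR-100 (24 h, 48 h), -0.30 and -0.23 for miR-125a-5p (0 h, 24 h) and -0.31 and -0.16 for miR-99a (0 h, 24 h). The authors' table gave -0.28, -0.04 and -0.02 for miR-100 (24 h, 48 h, 7d), -0.29 and -0.27 for miR-125a-5p and -0.30 and -0.20 for miR-99a (0 h, 24 h). Quantile normalization gave -0.06, -0.21 and -0.03 for miR-100 (2 h, 24 h, 48 h), -0.13 for miR-125a-3p (7d), -0.21 and -0.10 for miR-125a-5p (0 h, 24 h) and -0.09 for miR-99a (0 h). Mean log2 probe signals gave -0.07, -0.58, -0.59 and -0.45 for miR-100 (2 h to 7d), -0.15 and -0.03 for miR-125a-5p (0 h, 24 h) and -0.15 and -0.15 for miR-99a (0 h, 48 h). Brightness as a covariate gave 0.04 for miR-100 (0 h), -0.04 and -0.04 for miR-125a-5p (0 h, 24 h) and 0.03, 0.16 and 0.38 for miR-99b (0 h, 24 h, 7d). Slide as a fixed block gave -0.05, -0.33, -0.24 and -0.15 for miR-100 (2 h to 7d) and -0.08, -0.06, -0.15 and -0.07 for miR-99a (0 h to 48 h). Normexp gave 0.63 for miR-100 (0 h), 0.38 for miR-125a-5p (48 h), -0.22 and -0.06 for miR-99a (0 h, 48 h) and 0.67, 0.90, 0.77 and 1.21 for miR-99b (0 h, 24 h, 48 h, 7d). Without scaling, miR-100 gave -2.08, -1.10 and -2.35, miR-125a-3p -0.62, -0.09 and -1.52 (24 h, 48 h, 7d), miR-125a-5p -1.04 and -2.07 (0 h, 24 h) and miR-99a -1.05, -2.0, -0.96 and -1.98 (0 h, 24 h, 48 h, 7d). A floor of 1 unit gave -0.12 for miR-125a-3p at 7d. Leaving out 1 array moved miR-125a-5p at 0 h over -0.01 to 0.07, miR-100 at 2 h over -0.01 to 0.09 and at 24 h over -0.01 to 0.14, and miR-99a at 0 h over -0.04 to 0.06. The cause of these moves was not tested. Signal over background limits what can be said of miR-125a-3p and miR-99b, detected on 37 and 44 of 60 arrays.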

Other observations

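By group means, the miRs outside the families most like each member differed from member to member (Pearson r over 10 group means, with r over the 60 arrays given after it; all points share the scaling, and nothing follows about shared function). For rno-miR-125a-3p they were rno-miR-125b* (0.90, 0.76) and rno-miR-338* (0.87, 0.77), both minor strands, the first of them from the miR-125 family itself. For rno-miR-99a they were rno-let-7b (0.78, 0.60) and rno-miR-22 (0.75, 0.32), and for rno-miR-125b-5p rno-miR-301a (0.95, 0.79) and rno-miR-185 (0.94, 0.65). For rno-miR-99b they were rno-miR-375 (0.98, 0.70) and rno-miR-323 (0.97, 0.55), for rno-miR-100 rno-miR-151 (0.94, 0.68) and rno-miR-16 (0.86, 0.35), and for rno-miR-125a-5p rno-miR-192 (0.62, 0.14) and rno-miR-326 (0.58, 0.64).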
